A study of Mus musculus with 2 samples.

Results

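Resting oligodendrocyte precursor cells (OPCs) rich in Dll3 made up 566 of 11228 barcodes kept in library 1 (5.04%, exact Clopper-Pearson 95% interval 4.64 to 5.46%) and 597 of 10965 in library 2 (5.45%, 5.03 to 5.89%), or 1163 cells of 22193 and 5.24% ± 0.285 (SD, n = 2) of barcodes. They were chosen by their unique molecular identifier (UMI) counts: at least 2 UMIs of Dll3, at least 2 of Pdgfra and Cspg4 together, 0 of the division genes Mki67 and Top2a, at most 1 of the oligodendrocyte genes Enpp6 and Mag, 0 of the neuronal genes Neurod2 and Neurod6 and at most 1 of Gad1 and Gad2. Barcodes needed at least 500 detected genes and at most 10% mitochondrial UMIs. The share depends on depth: with every cell thinned to 4000 UMIs, tried after seeing the data, 183 of 7850 barcodes (2.33%) and 237 of 8544 (2.77%) met the rule. Because Dll3, Pdgfra and Cspg4 chose the cells, their levels are given as a description, with no test.

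OPCs are the dividing glial progenitors of the brain that give rise to myelinating oligodendrocytes, and they are known by the growth factor receptor Pdgfra and the proteoglycan Cspg4 (NG2). Notch signalling between neighbouring cells works through ligands such as Dll1 that activate Notch receptors, whose targets include the repressors Hes1, Hes5 and Hey1. Dll3 is a divergent member of the Delta family that acts mainly inside the cell that makes it rather than as a ligand for its neighbours.

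The study measured single-cell RNA in wild-type mouse pallium, from which the cerebral cortex forms. Embryos received the thymidine analogue EdU on embryonic day 12, which marks cells in S phase, and tissue was taken on postnatal day 3, pooled and dissociated. Cells that excluded propidium iodide and were among the 10% brightest for EdU were sorted, and 2 droplet libraries were made with a 3′ chemistry, with no untreated, unlabelled or mutant group. All cells compared here therefore share the genotype, the EdU label, the age and the sort, and comparisons run between classes of cells within the libraries. The sort kept only brightly labelled cells, so OPCs with less EdU are not represented. Whether the 2 libraries hold different animals is not stated in the labels. The p-values here set class differences only against how far they vary between these 2 libraries, which may be technical variation.

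The files held 13858 and 14513 barcodes with 97091962 and 108903409 UMIs. Of 62 barcode sequences found in both libraries, 40 passed the limits and 0 were Dll3-rich in both. The comparison classes were Dll3-poor resting OPCs (1905 and 1803 cells, at most 1 Dll3 UMI, at least 2 Pdgfra and 1 Cspg4 UMI, 0 of Mki67 and Top2a) and dividing OPCs (565 and 687 cells, at least 2 UMIs of Mki67 and Top2a). Dividing OPCs also needed at least 2 Pdgfra and 1 Cspg4 UMI. They had 0 UMIs of Neurod2 and Neurod6 and at most 1 of Gad1 and Gad2. Median UMIs per cell were 9249 and 9856 in Dll3-rich, 7817 and 8535 in Dll3-poor and 12980 and 13092 in dividing OPCs.

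Dll3 lies at chr7:28293553-28302238 on the minus strand of mm10, Dll1 at chr17:15367354-15376872 and Hes6 at chr1:91411483-91414038, all on the minus strand, and Hes5 at chr4:154960923-154962371 on the plus strand. All are annotated as protein coding. Exons of Hes5 overlap those of Gm20421, with strand not compared, so some reads there may not be told apart. Promoters of Notch pathway genes are shown because the results turn on Dll3 and on genes that were higher (Dll1, Hes6) or lower (Hes5) in the cells rich in it. Each is the 300 bases from 250 before to 50 after a RefSeq transcript start (GRCm38.p6), 5′ to 3′, with capitals marking either CAGCTG, an E-box, the motif class of bHLH factors, that is its own reverse complement, or TGGGAA and TTCCCA, the core of the Rbpj motif on either strand.
Dll3, chr7:28301736-28302035, minus strand: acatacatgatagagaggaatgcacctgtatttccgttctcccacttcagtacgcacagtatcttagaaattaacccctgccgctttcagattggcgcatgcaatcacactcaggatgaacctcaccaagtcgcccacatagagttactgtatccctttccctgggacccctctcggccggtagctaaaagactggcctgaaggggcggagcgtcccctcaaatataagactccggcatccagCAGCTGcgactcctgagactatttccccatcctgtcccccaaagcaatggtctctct
Dll1, chr17:15376883-15377182, minus strand: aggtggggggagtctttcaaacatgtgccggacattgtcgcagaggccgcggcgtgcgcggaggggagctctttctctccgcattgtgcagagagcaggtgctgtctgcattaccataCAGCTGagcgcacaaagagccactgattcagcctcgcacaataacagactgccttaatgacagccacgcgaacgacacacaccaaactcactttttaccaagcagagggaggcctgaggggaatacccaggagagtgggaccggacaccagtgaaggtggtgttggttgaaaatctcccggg
Hes6, chr1:91413989-91414288, minus strand: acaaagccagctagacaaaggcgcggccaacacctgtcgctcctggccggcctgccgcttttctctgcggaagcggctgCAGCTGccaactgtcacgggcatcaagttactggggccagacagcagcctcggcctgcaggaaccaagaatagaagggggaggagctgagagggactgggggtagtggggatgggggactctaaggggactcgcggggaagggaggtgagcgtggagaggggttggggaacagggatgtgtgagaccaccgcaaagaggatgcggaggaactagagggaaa
Hes5, chr4:154960673-154960972, plus strand: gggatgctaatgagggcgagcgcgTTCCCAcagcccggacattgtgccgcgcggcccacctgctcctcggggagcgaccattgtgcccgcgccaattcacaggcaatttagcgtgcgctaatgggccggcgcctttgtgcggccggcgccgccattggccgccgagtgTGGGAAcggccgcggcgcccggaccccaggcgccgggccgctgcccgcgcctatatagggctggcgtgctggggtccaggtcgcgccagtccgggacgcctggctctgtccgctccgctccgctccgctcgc
The Dll3 window held 1 CAGCTG, 7 bases before the start. The Dll1 window held 1, 132 bases before the start, and the Hes6 window 1, 171 bases before it. Hes5 held none, and had 2 copies of the Rbpj core. The window of Notch1 held neither motif. Where a gene had several windows, the one nearest the annotated gene start is shown, and the other window of Hes6 also held CAGCTG, while that of Dll1 did not.

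Over all 32851 windows, 16.3% held CAGCTG and 25.6% the Rbpj core. Of the 104 named genes, 74 had a window. CAGCTG was in a window of 8 of 28 named genes higher in Dll3-rich than in Dll3-poor cells (28.6%) and of 10 of 39 lower (25.6%), against 18.3% of all genes. The Rbpj core was in 13 of 28 (46.4%) and 9 of 39 (23.1%), against 28.3% of all genes. These matches are letters in a window, not measured binding.

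Dll3 itself stood at 304 and 283 CPM, the gene's UMIs scaled to a common library total, in the 2 sums of Dll3-rich cells and at 37.8 and 37.9 CPM in Dll3-poor cells. Dividing OPCs, whose gate did not read Dll3, had 66.8 and 67.0 CPM. Glutamatergic cells had 20.8 and 17.5 CPM, GABAergic cells 11.7 and 16.6 CPM, astroglia 5.82 and 5.49 CPM and microglia 3.16 and 0.902 CPM. New oligodendrocytes (13 and 26 cells, chosen by Enpp6 and Mag) had 50.3 and 67.4 CPM, on 8 and 26 Dll3 UMIs, above the Dll3-poor cells. Both libraries placed each OPC class and the new oligodendrocytes above the neuronal, astroglial and microglial classes. The gate fixed the place of the Dll3-rich cells. Glutamatergic cells stood above GABAergic cells in library 1, and the values of these classes were close in library 2.

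**Figure D1:**
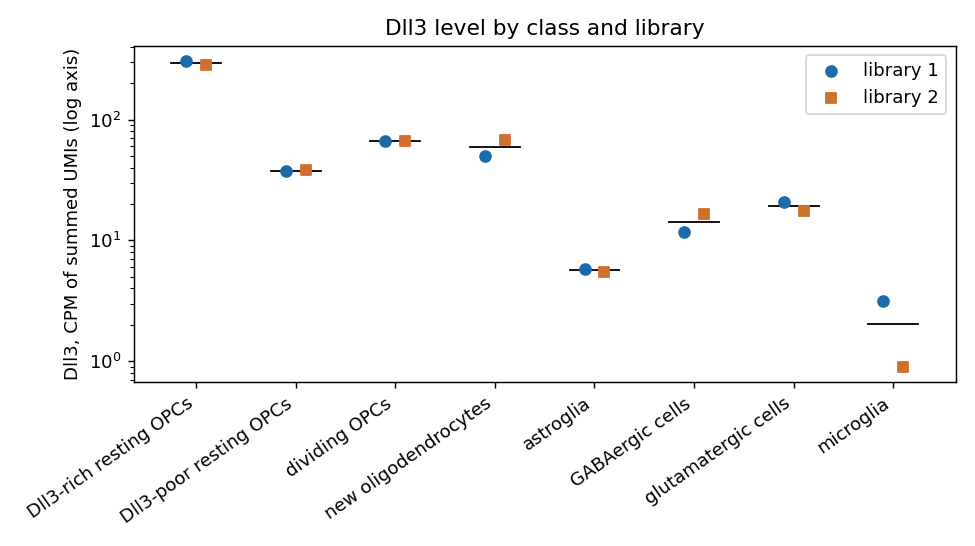
Dll3 level (CPM of UMIs summed per class, log axis) in 8 classes, with circles for library 1, squares for library 2 and a bar at their mean. Dll3-rich cells, which were chosen by this gene, stand near 293 CPM, dividing OPCs near 66.9 CPM and astroglia near 5.65 CPM.

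Near the threshold, 282 of 566 members (49.8%) in library 1 and 267 of 597 (44.7%) in library 2 had exactly 2 Dll3 UMIs. Another 42 cells in each library had 6 or more, and the highest counts were 11 and 13. Just outside the threshold, 564 of 1905 (29.6%) and 596 of 1803 (33.1%) Dll3-poor cells had 1 UMI. Pdgfra stood at 666 and 721 CPM in members against 1025 and 1071 CPM in Dll3-poor cells, and Cspg4 at 258 and 275 against 442 and 456 CPM. The gates set part of these gaps. Of the members, 42 and 25 had 0 or 1 Pdgfra UMI and 98 and 95 had 0 Cspg4 UMIs, which the Dll3-poor gate did not allow. Its Pdgfra and Cspg4 limits were met by 75.3 and 79.9% of members.

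Other markers were read beside the label. Summed over marker lists, members had 10890 and 11160 CPM of OPC genes and 8157 and 8034 CPM of astroglial genes. The astroglial sums were 10600 and 10330 CPM in Dll3-poor cells. GABAergic genes summed to 394 and 380 CPM in members, glutamatergic to 40.3 and 42.0 and microglial to 116 and 78.7. The gate bears on some of these lists. The lineage factors below were not set beside their levels in other cell types. Olig1, an oligodendrocyte lineage factor, was at 3042 and 2960 CPM, and Olig2 and Sox10, which specify the lineage, were at 661 and 645 CPM and at 265 and 251 CPM. After thinning each cell to 4000 UMIs, 3 or more UMIs of 23 S phase genes were found in 27.3 and 28.8% of members, 33.0 and 32.4% of Dll3-poor cells and 84.3 and 84.1% of dividing OPCs. So "resting" describes cells with no Mki67 or Top2a UMI, and some of them carried S phase transcripts.

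Against Dll3-poor resting OPCs, the Dll3-rich cells carried more of the ligand Dll1, Hes6, which antagonises Hes1, and the fringe Mfng, a glycosyltransferase that modifies Notch, and less of the Notch targets Hes1, Hes5 and Nrarp. Notch1 was not called. Cholesterol synthesis genes and glutamate and GABA receptors were mostly lower. Over 13751 genes tested by edgeR's quasi-likelihood test on sums per library and class, 1914 genes (13.9%) were higher and 1799 (13.1%) lower at an adjusted p under 0.05. The counts per list given below for this contrast are to be set beside these shares. The classes were cut on Dll3 in the same cells, so these calls describe genes that vary with Dll3 among resting OPCs.

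Without the library as a block, 456 genes were higher and 709 lower, and with library totals in place of TMM scaling, which moves the median of all genes to -0.14, the split was 773 higher and 3515 lower. With the same gate for both classes and matched UMI totals, added after seeing the data, 955 (7.56%) were higher and 954 (7.55%) lower, and 873 of the 1914 and 811 of the 1799 kept their call and direction.

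Among Notch ligands, 3 of 6 tested were higher. Their median log2 fold change was 0.37, beside -0.01 over all genes tested. Dll1 was at 77.2 and 74.3 CPM in Dll3-rich and 36.2 and 36.3 CPM in Dll3-poor cells. Dll1 was 2.29-fold higher in edgeR (log2 1.20, SE 0.07, adjusted p = 4.2e-14). The ligands Jag1, at 12.2 and 8.95 against 8.91 and 7.76 CPM, and Dlk1, below 2 CPM, were the other calls, and neither was called with the same gate and matched totals, where Dlk1 was not tested.

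Of 26 genes for receptors, processing and fringes, 2 were higher and 5 lower. Mfng was at 30.5 and 24.1 CPM against 7.17 and 6.55 CPM. It was 4.35-fold higher in edgeR (log2 2.12, SE 0.13, adjusted p = 6.1e-14). Notch1 was at 129 and 139 against 128 and 142 CPM, with a log2 fold change of 0.12 (SE 0.05, adjusted p = 0.072). Neurl1a, a ubiquitin ligase for Notch ligands, was lower at 8.19 and 7.74 against 19.7 and 22.5 CPM. Numb, an inhibitor of Notch, was lower at 17.3 and 17.1 against 27.2 and 25.2 CPM.

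Of 7 Notch targets and Hes factors, 5 were lower and 1, Hes6, higher. Hes1 was at 35.6 and 41.1 CPM in Dll3-rich and 81.2 and 66.2 CPM in Dll3-poor cells, which was 1.73-fold lower (log2 -0.79, SE 0.08). Hes5 was at 79.7 and 77.2 against 136 and 113 CPM, and Nrarp, a feedback inhibitor of Notch, at 38.4 and 36.7 against 94.2 and 89.1 CPM. Nrarp was 2.23-fold lower in edgeR (log2 -1.16, SE 0.07, adjusted p = 4.7e-14). Hey1 was lower with a log2 fold change of -0.28 (adjusted p = 0.009), a call lost without the library block (adjusted p = 0.0894), in DESeq2 (0.383), at 4 or more Dll3 UMIs (0.0541) and with matched UMI totals under the gates as chosen (0.0592), and its direction turned with cells thinned to 4000 UMIs (log2 0.20, adjusted p = 0.568). Heyl was low in both classes, at 0.523 and 1.21 against 2.61 and 2.35 CPM (log2 -1.34, SE 0.45, adjusted p = 0.027). Its call was lost without the library block (adjusted p = 0.0802), at 4 or more Dll3 UMIs (0.0617) and without cells with markers of other types (0.062). Hes6 was at 210 and 190 against 109 and 101 CPM, 2.09-fold higher (log2 1.06, SE 0.05, adjusted p = 5.4e-17).

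**Figure D2:**
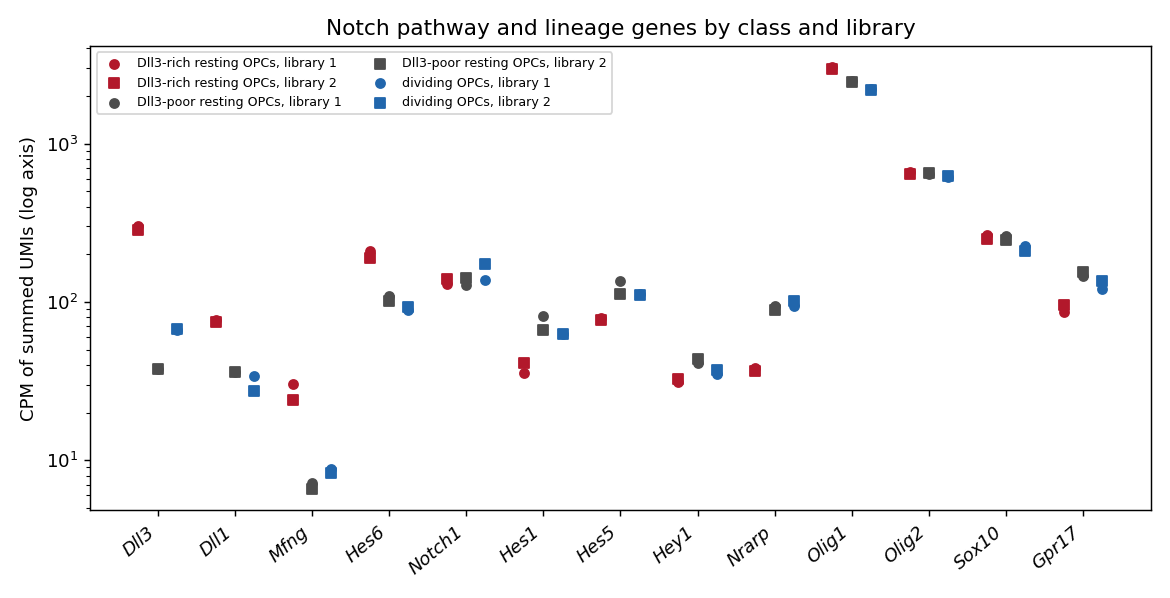
Levels (CPM, log axis) of 13 genes in Dll3-rich, Dll3-poor and dividing OPCs, with circles for library 1 and squares for library 2. Dll1, Mfng and Hes6 stand above the Dll3-poor values in both libraries and Hes1, Hes5 and Nrarp below, while Notch1, Olig2 and Sox10 overlap.

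Of 13 proneural and Id genes tested, 7 were higher and 2 lower. Id3, an inhibitor of bHLH factors, was lower at 176 and 177 against 251 and 222 CPM. Neurod1, a neuronal factor, was lower at 1.05 and 1.21 against 7.57 and 5.60 CPM, beside gates that let Neurod2 and Neurod6 UMIs into Dll3-poor cells only.

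The same pattern was seen per cell. At 4000 UMIs, Dll1 had a UMI in 26.0 and 22.6% of Dll3-rich cells and 13.2 and 13.5% of Dll3-poor cells, beside 0 of 75 and 2 of 80 microglia (exact upper limits 4.8 and 8.74%). Hes6 had a UMI in 54.8 and 47.9% against 34.8 and 32.8%, with 18.7 and 12.5% in microglia. Hes1 had a UMI in 9.04 and 12.4% of Dll3-rich cells and 24.7 and 22.4% of Dll3-poor cells, beside 14.7% (exact interval 7.56 to 24.7%) and 5.0% (1.38 to 12.3%) of microglia. The Dll3-rich share (exact intervals 6.74 to 11.8% and 9.79 to 15.3%) was below the microglial share in library 1 and above it in library 2. The intervals of these classes overlapped in both libraries. Not thinned, Dll1 had a UMI in 45.4 and 45.1% of Dll3-rich cells, 21.7 and 24.4% of Dll3-poor cells and 1.18 and 4.94% of microglia. For Hes6 these shares were 76.3 and 74.7%, 47.8 and 50.25%, and 44.7 and 44.4%. For Hes1 they were 22.4 and 23.6%, 37.4 and 34.1%, and 28.2 and 18.5%. Microglia had medians of 11463 and 12993 UMIs per cell. Whether the microglial UMIs are background was not tested.

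Levels also differed with the number of Dll3 UMIs within the resting OPCs, though not always steadily among the members, as a description. Dll1 stood at 30.9 ± 1.40 CPM (SD, n = 2) in cells with 0 Dll3 UMIs, 45.7 ± 2.52 with 1, 70.0 ± 1.21 with 2 and 111 ± 16.8 with 6 or more. Hes6 went from 95.1 ± 4.69 CPM at 0 to 167 ± 29.1 at 2 and 278 ± 18.3 at 6 or more. Hes5 went from 133 ± 22.8 CPM at 0 to 83.1 ± 4.21 at 2 and 57.9 ± 4.80 at 6 or more. Gpr17, a receptor of committed precursors, went from 162 ± 5.15 to 99.2 ± 11.6 and 57.9 ± 0.755 CPM. In the bins between, Hes6 was at 212 ± 4.26 CPM with 3 Dll3 UMIs and 223 ± 18.3 with 4 to 5. Dll1 was at 78.4 ± 11.6 and then 71.6 ± 15.9 CPM in these bins, and Hes5 at 83.4 ± 12.05 and 71.8 ± 10.8. Hes1 was at 26.35 ± 3.14 CPM with 3 and higher, at 37.8 ± 14.8, with 4 to 5. Cells also changed gate between 1 and 2 UMIs. Depth differed too, with medians of 7366 and 8206 UMIs per cell at 0 Dll3 UMIs and 9884 and 9784.5 at 6 or more. The part of depth in these levels was not tested. Notch1 stood at 139 ± 10.7 CPM at 0, 144 ± 5.77 at 2 and 112 ± 4.00 at 6 or more.

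**Figure D3:**
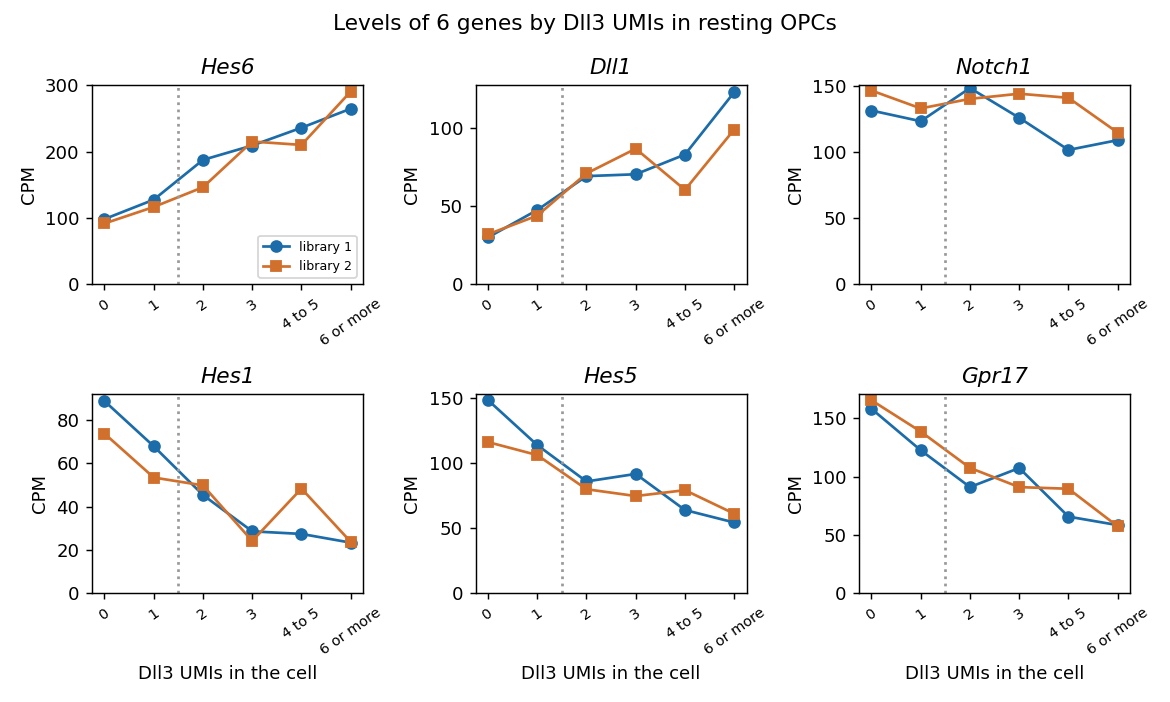
Level (CPM of summed UMIs) of 6 genes by the number of Dll3 UMIs in the cell, with 1 line per library and a dotted line at the Dll3-rich threshold. Hes6 and Dll1 lie higher and Hes1, Hes5 and Gpr17 lower to the right of the line than at 0 UMIs.

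Lineage genes moved in both directions. Of 16 OPC markers tested, 8 were higher and 6 lower. Olig1 was higher by 0.41 on the log2 scale (SE 0.03), against 2484 and 2465 CPM in Dll3-poor cells. Traf4, a signalling adaptor, was at 541 and 500 against 383 and 358 CPM, and Emid1 at 109 and 83.4 against 250 and 227 CPM. Olig2 and Sox10 were called higher at log2 0.15 and 0.16, but at 0.02 and 0.03 with library totals (adjusted p = 0.661 and 0.624), where their calls were lost. Among 15 genes of committed precursors, 3 were higher and 5 lower. Gpr17 was lower at 86.1 and 95.3 against 145 and 155 CPM (log2 -0.60, SE 0.05), and Bcas1, a gene of early oligodendrocytes, was higher at 270 and 276 against 163 and 168 CPM.

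Of 20 genes of G1 and cell cycle exit, 8 were higher and 5 lower. Cdkn1c, a CDK inhibitor, was at 70.1 and 69.5 CPM against 27.6 and 30.1 CPM, 2.65-fold higher (log2 1.40, SE 0.07, adjusted p = 1.4e-15). Gadd45g, a growth arrest gene, was at 82.8 and 73.9 against 35.9 and 35.4 CPM, 2.4-fold higher. The G1 kinases Cdk4 and Cdk6 were higher too, Cdk6 at 105 and 115 against 68.8 and 73.7 CPM. Ccnd2, a G1 cyclin, was lower at 283 and 293 against 376 and 428 CPM. Sox4, a factor of immature progenitors, was higher at 993 and 1023 against 718 and 754 CPM.

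Of 19 cholesterol synthesis genes, 15 were lower. The median log2 fold change of the list was -0.39. Msmo1, a sterol demethylation enzyme, was at 178 and 183 CPM against 283 and 303 CPM (log2 -0.57, SE 0.04). With the same gate and matched totals 16 were lower. Among glutamate and GABA receptors 18 of 22 were lower, and 11 of 21 with the same gate and matched totals. Gria3, an AMPA receptor subunit, was at 88.6 and 108 against 175 and 197 CPM, and Grin2b, an NMDA subunit, at 5.93 and 5.16 against 17.3 and 18.3 CPM, a call lost with the same gate and matched totals (adjusted p = 0.447). Of 22 voltage-gated channel genes 14 were lower and 1, Cacng4, higher, and of 16 proteoglycan and matrix genes 9 were lower and 3 higher, with Sulf2, a heparan sulfate editing enzyme, at 131 and 154 against 238 and 276 CPM.

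**Figure D4:**
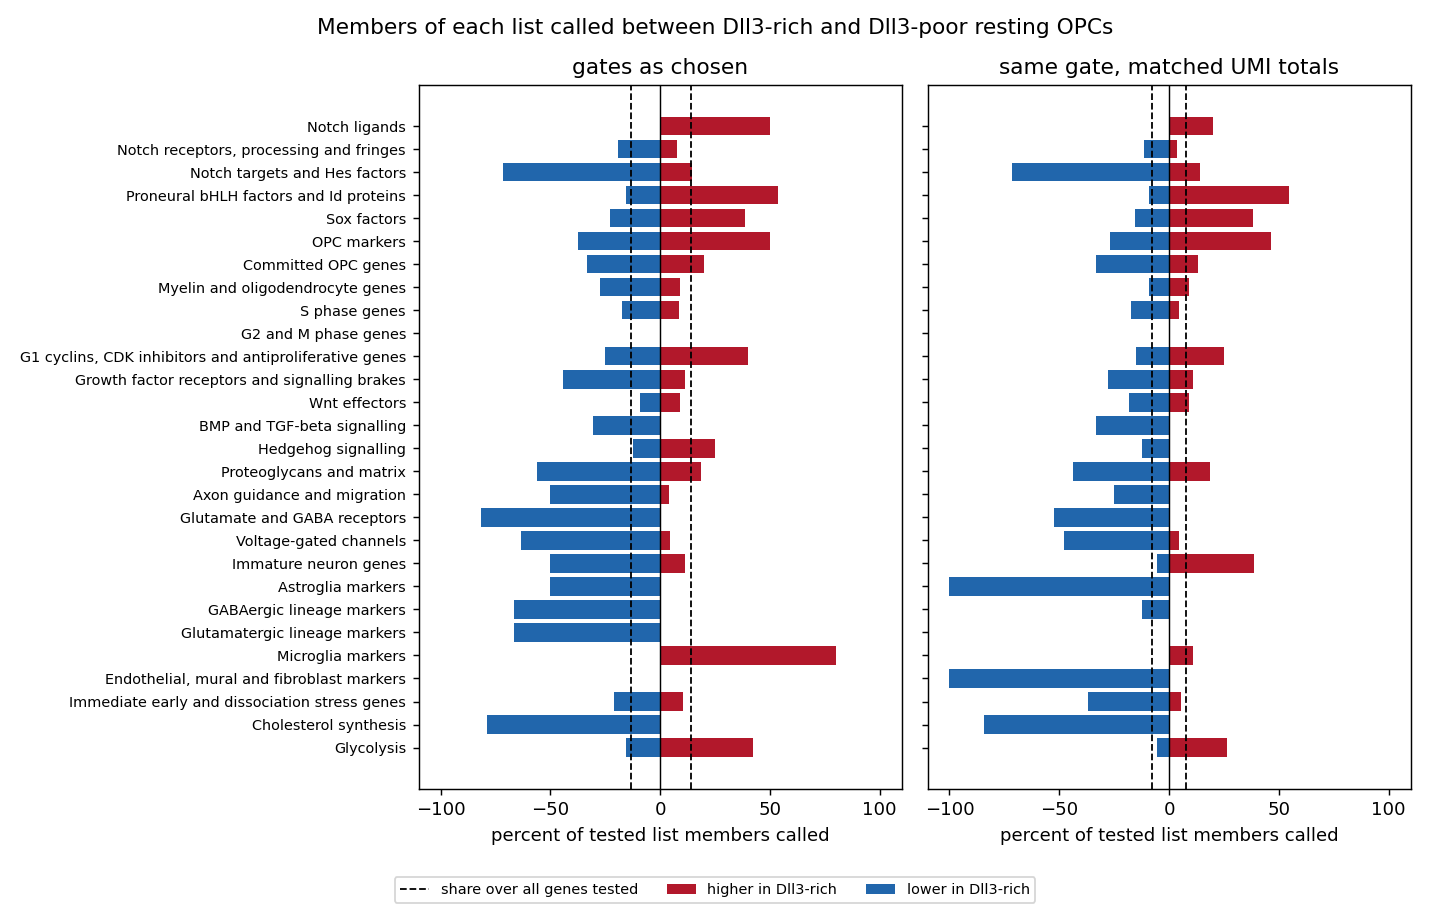
Percent of the tested members of 28 lists called higher (red, right) or lower (blue, left) in Dll3-rich than in Dll3-poor resting OPCs, with dashed lines at the share over all genes, for the gates as chosen and for the same gate with matched UMI totals. Cholesterol synthesis and Notch targets are mostly lower in both panels, while neuronal and microglial lists differ between panels. The full bar of vascular markers in the right panel is 1 gene.

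Calls in the other lists were as follows. Over all genes tested, 13.9% were higher and 13.1% lower, and list counts near those shares are not read as a result about the list. Glycolysis genes were higher in 8 of 19 and lower in 3, with Pgk1 at 283 and 274 against 209 and 220 CPM. Axon guidance genes were lower in 13 of 26 and higher in 1, growth factor receptors and signalling brakes lower in 8 of 18 and higher in 2, and BMP and TGF-beta genes lower in 4 of 13. Spry1, a brake on receptor tyrosine kinases, was at 115 and 122 against 196 and 190 CPM. Sox factors were higher in 5 of 13 and lower in 3, Hedgehog genes higher in 2 of 8 and lower in 1, Wnt effectors higher in 1 and lower in 1 of 11, and S phase genes higher in 2 and lower in 4 of 23. Myelin genes were higher in 1 and lower in 3 of 11, and stress genes higher in 2 and lower in 4 of 19. Of 18 G2 and M phase genes, 0 were called by edgeR or DESeq2, and 1 had an unadjusted p under 0.05 in each. Of 4 vascular and fibroblast genes tested by edgeR, 0 were called and 0 had an unadjusted p under 0.05, and DESeq2 gave none of them an adjusted p.

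Outside the lists, Helt, a bHLH-type repressor, was at 23.0 and 17.8 against 5.49 and 4.39 CPM (4.51-fold higher). Gpd1, Dok7, Ifitm10 and Draxin, an axon guidance factor, were also higher, each called with the same gate and matched totals. The largest falls were Col19a1, a collagen, at 5.75 and 3.64 against 26.5 and 30.4 CPM, Pnlip at 12.7 and 6.68 against 54.2 and 48.5 CPM, and Acan, the proteoglycan aggrecan, at 4.88 and 5.31 against 19.7 and 24.7 CPM. Trnp1, Unc13c, Gpc5 and Gjc3 were lower as well. Egfr was higher at 33.0 and 37.2 against 19.8 and 17.5 CPM, but at a log2 fold change of 0.26 with the same gate and matched totals (adjusted p = 0.216).

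Some of these differences moved with the gates or with few cells. Of Dll3-poor cells, 17.1 and 21.4% lay outside the exclusions set for the Dll3-rich cells, mostly for Neurod2 or Neurod6 UMIs. Igfbpl1 was lower at 33.5 and 45.7 against 158 and 150 CPM, but at a log2 fold change of 0.21 with the same gate and matched totals. The GABAergic and glutamatergic lists, 6 of 9 and 4 of 6 lower, had 1 of 8 and 0 of 5 lower there, and astroglia markers, 6 of 12 lower, had 12 of 12. Immature neuron genes were higher in 2 and lower in 9 of 18, but higher in 7 and lower in 1 with the same gate and matched totals, and 4 and 4 without cells with markers of other types. Ndnf and Reln, at 43.2 and 88.7 CPM of Reln, were called higher, yet 94.4 and 96.9% of the Reln UMIs lay in 2 and 6 cells. Microglia markers, 8 of 10 higher, had 95.5 and 94.0% of their complement C1q UMIs in 3 and 2 cells, and without cells carrying markers of other types 1 of 10 could be tested. In that fit 15.6% of all genes were higher and 14.9% lower, and Hes6 (log2 1.12), Dll1 (1.22), Hes5 (-0.68), Nrarp (-1.35) and Cdkn1c (1.56) kept their calls.

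Against dividing OPCs, 2310 of 13751 genes (16.8%) were higher and 3020 (22%) lower. The dividing gate held the Pdgfra and Cspg4 limits of the Dll3-poor gate, which 75.3 and 79.9% of members met. Since Mki67 and Top2a divided the classes, the 23 S phase and 18 G2 and M phase genes that were all lower follow from the gate and are not read. Dll1 was 2.62-fold higher (34.0 and 27.3 CPM in dividing OPCs) and Hes6 2.29-fold higher (89.3 and 92.8 CPM). Hes1 was at 62.9 and 62.4 and Nrarp at 94.9 and 102 CPM in dividing OPCs, so both were lower in Dll3-rich cells. Notch1 was called lower here by edgeR (log2 -0.14, adjusted p = 0.0324), at -0.007 and -0.245 in the libraries. Hey1 was not called in this contrast (edgeR adjusted p = 0.4015). Helt, Dok7 and Draxin were among the 4 largest rises outside the lists, with Helt 6.03-fold higher. The 4 largest falls, Depdc1a, Esco2, Kif15 and Iqgap3, were genes of division, on which the gate also bears, and are not read. Immature neuron genes were higher in 12 of 18 and lower in 2 in this contrast.

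The Dll3-rich cells were not uniform. Clustering them on genes outside the rule gave 8 clusters of 41 to 272 cells, each with cells of both libraries, and since clusters come from these genes the values are a description. Cluster 3 (212 cells) had Dbx2, Egfr, Helt and Mtmr11 among its leading genes, with Hes6 at 393 and 391 and Dll1 at 161 and 159 CPM, and with low Pdgfra (339 and 387 CPM) and Gpr17 (13.3 and 25.3 CPM). Cluster 4 (183 cells) was led by Trnp1, Rasl11a, Npas1 and Emid1, with Pdgfra at 1046 and 1161, Mfng at 9.02 and 6.73 and Hes1 at 64.1 and 83.7 CPM. Cluster 2 (266 cells) was led by Stmn2, Meg3 and Pcp4, with the neuronal genes Map1b and Gap43 and none of the OPC markers among its 10 leading genes. Its cells still had Olig1 at 2454 and 2236 and Pdgfra at 677 and 748 CPM. Cluster 6 (65 cells) was led by the replication genes Mcm3, Dtl and Timeless, and cluster 7 (49 cells, median 18178 UMIs) by Tnc, Aqp4 and Slc4a4. Cluster 7, the deepest of the 8, also carried the astroglial genes Gfap and Gja1 and had Hes5 at 336 and 349 CPM, and the part of such cells in the class totals was not tested beyond the fit that leaves them out. Cluster 8 (41 cells) had a median of 2511 UMIs and 877 CPM of Dll3, so its levels rest on few UMIs.

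**Figure D5:**
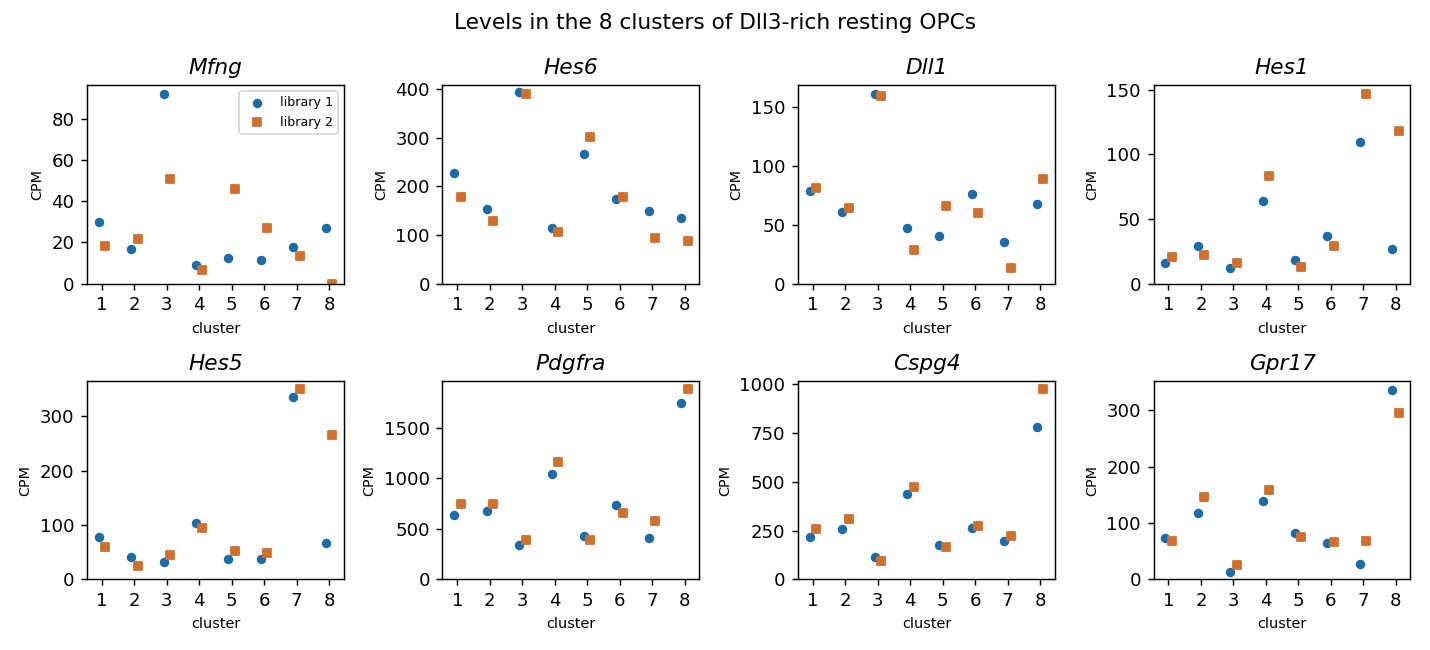
Levels (CPM) of 8 genes in the 8 clusters of Dll3-rich resting OPCs, circles for library 1 and squares for library 2. Cluster 3 has the highest Mfng, Hes6 and Dll1 of the 8 and low Pdgfra and Gpr17, and cluster 4 has Mfng at 9.02 and 6.73 CPM with Pdgfra above 1000 CPM.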

How the data were processed

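UMI counts per gene and barcode were deposited by the authors as matrices of 32285 genes, made with Cell Ranger 6.0.2 per the file headers. R 4.1.0, Seurat 4.1.0 and mm10 are named in the submitters' processing notes. The aligner settings are not given in the sources used here. Counts were not normalized.

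For each class of at least 20 cells, counts were added up within a library and tested with edgeR 4.0.16 in R 4.3.3, on 3 classes (6 sums, 2 residual degrees of freedom) with TMM, filterByExpr, the library as a block and Benjamini-Hochberg adjustment at 0.05. The 11 gate genes stayed in library sizes and out of tests. Classes of a library share its sort and its preparation, which pairs them. With so few degrees of freedom, p-values lean on a spread estimated over all genes. A contrast with new oligodendrocytes was not run, since these had 13 and 26 cells. CPM values use library totals and fold changes use TMM, so they differ by the scaling shift. Scrublet, run in scanpy 1.11.5, marked 28 and 33 members as doublets, which stayed in. Leiden clusters were made with numpy 2.4.6, scikit-learn 1.9.0, igraph 0.11.9 and leidenalg 0.10.2. Their leading genes needed a UMI in 25% of cells, a limit added after seeing the ranking.

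Genes were named as follows: a fixed set, the 2 largest rises and falls in each list, and the 8 largest rises and falls outside the lists at 20 CPM or more (4 against dividing OPCs). Some genes that this names are not reported here, and no others take their place. Promoter motifs had been looked up before the rule for which promoters to show was set. IDs of 32158 of 32285 genes matched GENCODE M21. Of the named genes, 28 share exonic bases with another gene, with strand not compared, and reads there may be split. The edgeR step was tested on simulated counts with known changes. The alternatives were DESeq2 1.42.0, other scalings, filters, gates and depths, and leaving out each library. Intervals cover counting error only. The members and lists were chosen with earlier results of these data known.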

Additional observations from a re-analysis of the deposited data

How the results depend on the processing

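The counts against Dll3-poor cells (1914 higher, 1799 lower) moved by over 1.5 times with DESeq2 (809 and 565), library totals with no TMM (773 and 3515), cells thinned to 4000 UMIs (701 and 636) and, added after seeing the data, the same gate with matched UMI totals (955 and 954). Without the replicate block they were 456 and 709. Against dividing OPCs (2310 and 3020) they moved with DESeq2 (1063 and 1528) and thinning (1044 and 1465), and 2310 became 1197 without the replicate block. The share of barcodes (5.24%) was 1.54% with 4 or more Dll3 UMIs and 4.07% with the same gate. It was 2.55% with cells thinned to 4000 UMIs, added after seeing the data, 6.32% at 5% mitochondrial UMIs and 7.81% without cells carrying markers of other types, and these 3 settings also shrink the denominator. Left to 1 library, the share was 5.04 to 5.45%.

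Of 101 named genes tested against Dll3-poor cells, 49 lost their call or turned under at least 1 alternative. Thinning turned Hey1 (0.20), and, against dividing OPCs, Dpysl5 (-0.16). Sox11 turned with the same gate (0.21), without doublets (0.17), with the same gate and matched totals (0.20) and without cells with other markers (0.03). The same gate with matched totals turned Dpysl5 (0.04), Dlx6os1 (0.38) and Igfbpl1 (0.21). Csf1r (-2.34) and Cx3cr1 (-1.82) turned without doublets, Hsp90aa1 (-0.05) with no TMM, and Ndnf (-0.45) and Reln (-0.18) without cells with other markers. Against dividing OPCs, Ndnf turned at 4 or more Dll3 UMIs (-0.05), with the same gate (-0.78) and without cells with other markers (-0.25), and Reln with the same gate (-0.90). The causes were not tested. Leaving out a library leaves no residual degrees of freedom, so counts have no such value. Leaving out 1 replicate, Cx3cr1 ranged from -1.97 to 1.03 against dividing OPCs. The contrast with new oligodendrocytes was not run, for too few cells.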
